A study of Equus caballus with 18 samples.

Results

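Proximal forelimb muscles were compared with proximal hindlimb muscles of the horse, using 9 of the 18 skeletal muscle libraries of the series. The members were chosen by the muscle named in the labels, not by any measured value. The proximal forelimb group had 4 libraries, from the long head of triceps brachii, biceps brachii, infraspinatus and supraspinatus. The proximal hindlimb group had 5 libraries, from semitendinosus, gluteus superficialis and the vertebral, middle and caudal parts of biceps femoris. The other 9 muscles were left out of the test, which were 4 distal extensors, 4 girdle and neck muscles and 1 trunk muscle. All libraries were RNA-Seq of ribosome-depleted total RNA from 1 male Jeju horse, with 1 library per muscle or, for biceps femoris, per part. Muscles and muscle parts therefore stood in for replicates. The p-values measured the spread between muscles and muscle parts of this horse, not between horses. In addition, 3 of the 5 hindlimb libraries were parts of 1 muscle. The age of the horse was not in the labels, but the paper gives its date of birth.

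Forelimb and hindlimb muscles of a horse do different work. The forelimb carries more of the standing weight and is joined to the trunk by muscle alone, while the large hindlimb muscles drive the body forward. In vertebrates the limbs are patterned in the embryo by different transcription factors, and adult muscle can keep part of the expression of its place of origin. Muscles also differ in their share of slow, oxidative fibers and fast, glycolytic fibers, which is not fixed by the limb they belong to.

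The table gave genes by Ensembl identifier and did not pair identifiers with names, so genes are described by level and direction, with the identifiers of up to 2 genes for each direction. For the same reason, markers of muscle, limb position, fiber types and other cell types could not be looked up in the sources used here. The labelled tissue was therefore not checked against such markers. The 9 libraries held 33537488 to 39254160 counts on 25239 genes. The most abundant gene was the same in all 9 libraries and took 24.6% to 39.1% of the counts. Levels are given as CPM (counts scaled to library size) after TMM scaling over all 18 libraries. This scaling adjusts for depth and for the weight of very abundant genes, assuming that most genes do not change. In bulk tissue, fewer cells of a type and less RNA per cell cannot be told apart.

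The main question was how many genes separated the proximal muscles of both limbs. Of 12975 genes tested with edgeR, 10 were differentially expressed genes (DEGs, adjusted p below 0.05 and absolute log2 fold change above 0.58), which is 0.0771% of the genes tested. Of these, 7 were higher in the forelimb (0.0539%) and 3 were higher in the hindlimb (0.0231%). This balance depended on the processing: with DESeq2 size factors in edgeR 1 gene was higher in the forelimb and 3 in the hindlimb, with the parts of biceps femoris summed to 1 sample 41 and 86, and a fit of all 18 libraries in 5 groups called 0 genes by edgeR, with 1914 at an unadjusted p below 0.05. The CPM ranges of the groups did not overlap for any of the 10 genes, which were chosen by a small p, against 675 of all 12975 genes (5.2%). Without adjustment, 2063 genes (15.9%) had a p below 0.05, with 1159 higher in the forelimb (8.93%) and 904 higher in the hindlimb (6.97%). DESeq2, the other count test run, called 385 of 21300 genes with a p-value (1.81%), 211 higher in the forelimb and 174 in the hindlimb. These included all 10 genes called by edgeR. Genes that the low-count filter of DESeq2 leaves without an adjusted p stay in the 21300. This share is therefore not on the same base as that of edgeR. The median log2 fold change (log2FC, forelimb minus hindlimb) of all genes tested was 0.02, and the 10th and 90th percentiles were -0.43 and 0.47.

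The DEGs that were higher in the hindlimb included a pair of genes with no count in any forelimb library. ENSECAG00000024985 had 51 counts in semitendinosus and 75 in gluteus superficialis, and 59, 73 and 96 counts in the vertebral, middle and caudal parts of biceps femoris. It was at 0 counts in triceps brachii, biceps brachii, infraspinatus and supraspinatus. The groups did not overlap, and every hindlimb library was above every forelimb library. The hindlimb level was 1.81 ± 0.611 CPM (SD, n = 5). Against a floor of 3 counts in the forelimb library with the highest floor, 0.0942 CPM, the hindlimb level was at least 19.2-fold higher (edgeR quasi-likelihood test, Benjamini-Hochberg adjusted p = 0.00226).

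ENSECAG00000024900 had the same pattern at a similar level. Its counts were 54 in semitendinosus, 57 in gluteus superficialis and 52, 39 and 45 in the vertebral, middle and caudal parts of biceps femoris, with 0 counts in all 4 forelimb libraries. The spread over the hindlimb libraries was small, at 1.23 ± 0.138 CPM (SD, n = 5). The level was at least 13.1-fold higher in the hindlimb against the same floor (edgeR adjusted p = 0.00122). Neither gene of the pair was called in the fit of all 18 libraries, where the edgeR adjusted p was 0.245 for both. These floors and counts cover counting error only. Over the 25239 genes of the table, 2 genes had at most 3 counts in every forelimb library and at least 10 in every hindlimb library, and 0 genes had the reverse pattern.

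The muscles left out of the test gave more values for this pair of genes. Extensor digitorum longus had 61 counts of ENSECAG00000024985 and 58 of ENSECAG00000024900, and extensor digitorum lateralis had 33 and 37 counts. In longissimus, the trunk muscle, ENSECAG00000024985 had 60 counts, close to the hindlimb libraries, but ENSECAG00000024900 had 1 count. Both genes were at 0 counts in extensor digitorum communis, extensor carpi radialis, rhomboideus, omohyoideus, trapezius and pectoralis major. Longissimus was the only one of the 18 muscles in which one gene of the pair was above the floor of 3 counts and the other was not.

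**Figure D1:**
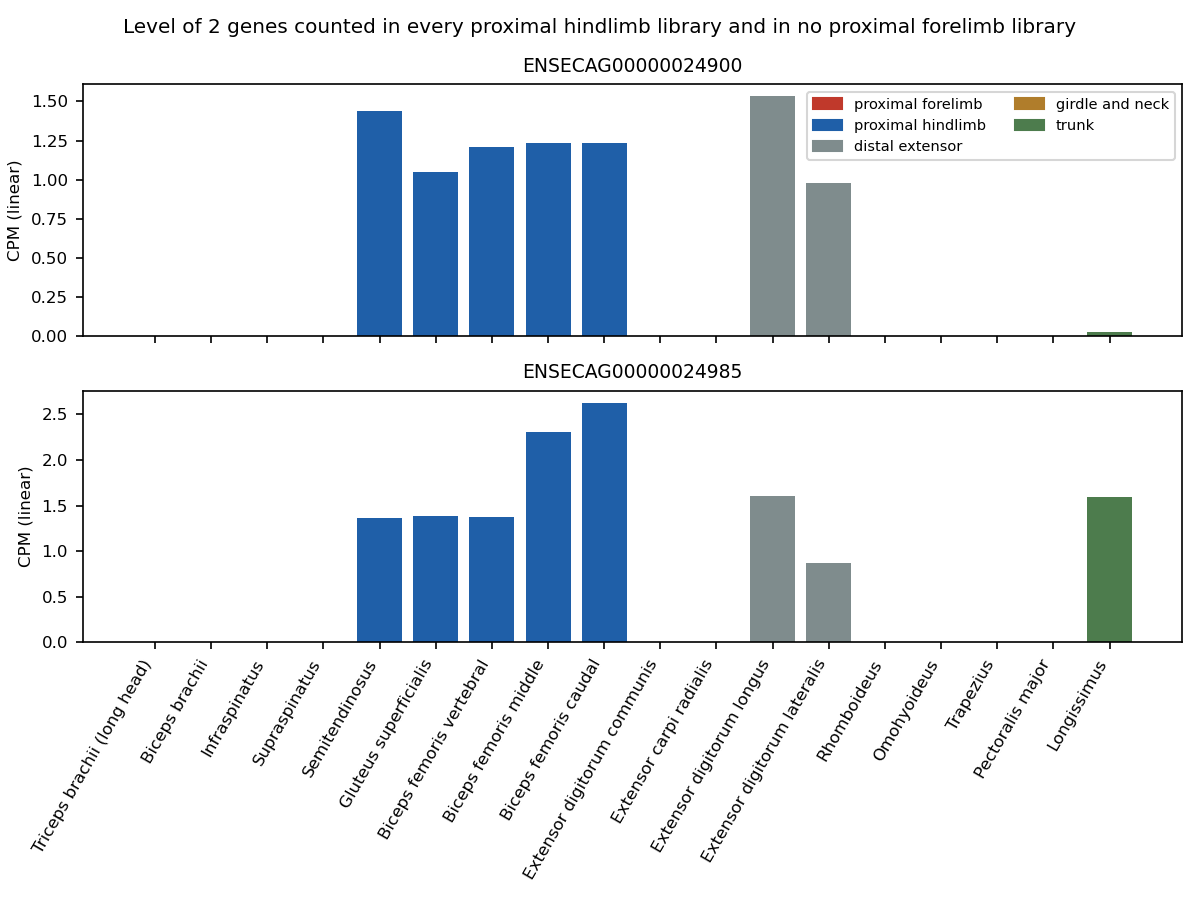
Level in CPM on a linear axis of the 2 genes without counts in the proximal forelimb, in each of the 18 muscles, with bars colored by muscle group. Bars stand in the 5 proximal hindlimb libraries, in extensor digitorum longus and in extensor digitorum lateralis, and longissimus has a bar for ENSECAG00000024985 at 1.60 CPM but is close to 0 for the other gene.

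The third gene that was higher in the hindlimb was detected in both limbs. It averaged 4.28 ± 0.854 CPM in the forelimb (SD, n = 4) and 10.6 ± 1.91 CPM in the hindlimb (SD, n = 5), with a log2FC of -1.29 (SE 0.18, edgeR adjusted p = 0.0427). This gene had counts in all 9 libraries. It was not called in the fit of all 18 libraries. Among the muscles left out, it was at 11.6 CPM in pectoralis major, 13.0 in omohyoideus and 17.6 in extensor carpi radialis. Extensor digitorum longus had 18.3 CPM and extensor digitorum lateralis 22.4. Levels were lower in rhomboideus (5.25 CPM), trapezius (4.98), extensor digitorum communis (5.09) and longissimus (5.56). The difference between these muscles was not tested.

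The 7 DEGs that were higher in the forelimb were expressed in every library of both limbs, and their forelimb means lay between 16.6 and 113 CPM. Their log2FC values were between 0.77 and 1.19, with edgeR adjusted p between 0.0427 and 0.0459, all close to the threshold. ENSECAG00000022389 was the largest of them. It was at 90.5 CPM in triceps brachii, 87.8 in biceps brachii, 139 in infraspinatus and 136 in supraspinatus. In the hindlimb it was at 58.1 CPM in semitendinosus, 43.8 in gluteus superficialis and 55.0, 46.0 and 48.0 in the vertebral, middle and caudal parts of biceps femoris. The scapular muscles infraspinatus and supraspinatus were the highest, and the lowest forelimb library was above the highest hindlimb library. The means were 113 ± 28.1 CPM (SD, n = 4) and 50.2 ± 6.10 CPM (SD, n = 5), a log2FC of 1.19 (SE 0.18, edgeR adjusted p = 0.0427). This gene was called in 8 of 16 alternative settings. With DESeq2 size factors in edgeR its log2FC was 1.18, with an edgeR adjusted p of 0.0518. In the fit of all 18 libraries these values were 1.18 and 0.245. Most fits that left out 1 library did not call it either. It stayed a DEG without triceps brachii, biceps brachii or the caudal part of biceps femoris. Without any one of the other libraries its edgeR adjusted p was 0.0808 to 0.187.

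ENSECAG00000020637 was the next by size. Its forelimb levels were 77.9 CPM in triceps brachii, 69.8 in biceps brachii, 84.6 in infraspinatus and 96.9 in supraspinatus. Its hindlimb levels were 33.5 CPM in semitendinosus, 36.6 in gluteus superficialis and 32.2, 30.8 and 53.3 in the vertebral, middle and caudal parts of biceps femoris. The caudal part stood above the other hindlimb libraries but below every forelimb library. The means were 82.3 ± 11.5 CPM (SD, n = 4) and 37.3 ± 9.23 CPM (SD, n = 5), a log2FC of 1.15 (SE 0.18, edgeR adjusted p = 0.0459). This gene was called in 7 of 16 alternative settings. With DESeq2 size factors in edgeR its log2FC was 1.15, with an edgeR adjusted p of 0.0523. In the fit of all 18 libraries these values were 1.14 and 0.249. Most fits that left out 1 library did not call it either. It stayed a DEG without biceps brachii or the caudal part of biceps femoris. Without any one of the other libraries its edgeR adjusted p was 0.0627 to 0.208.

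The forelimb-higher DEGs were not particular to the forelimb when the other muscles were read. All 7 lay above every proximal hindlimb library in rhomboideus, trapezius, extensor digitorum communis and longissimus. None of the 7 did so in omohyoideus, extensor carpi radialis, extensor digitorum longus or pectoralis major, and 2 did so in extensor digitorum lateralis. ENSECAG00000022389, for example, was at 127 CPM in longissimus and at 39.7 CPM in extensor carpi radialis, a muscle of the forelimb by anatomy. These muscles took no part in choosing the genes, and the difference between them was not tested.

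**Figure D2:**
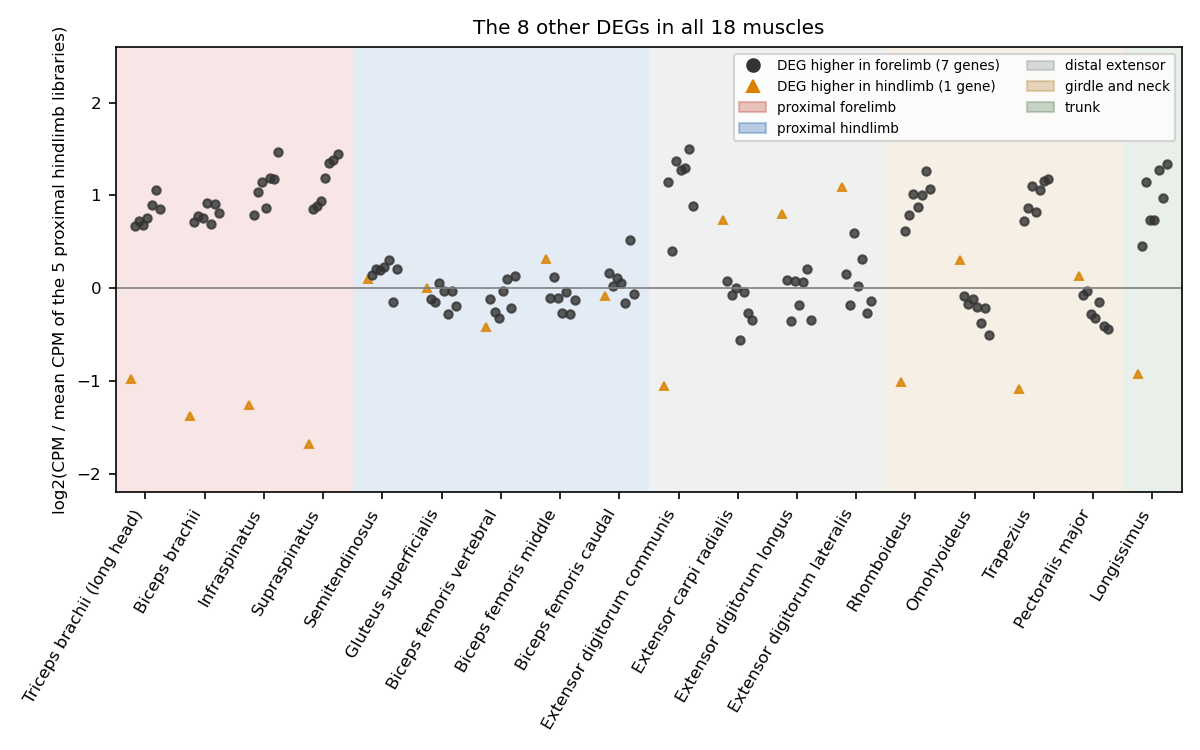
Level of the 8 DEGs detected in both limbs, as log2 of CPM over the mean CPM of the 5 proximal hindlimb libraries, in all 18 muscles; circles are the 7 genes higher in the forelimb, triangles the 1 gene higher in the hindlimb, and shading marks the muscle group. All 7 circles lie above every proximal hindlimb library in rhomboideus, trapezius, extensor digitorum communis and longissimus.

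A wider set of genes gave a similar division of the muscles left out. The CPM ranges of the 4 forelimb and 5 hindlimb libraries did not overlap for 675 of the 12975 genes (5.2%), with 377 higher in the forelimb (2.91%) and 298 higher in the hindlimb (2.3%). In trapezius, 454 of these 675 genes (67.3%) were on the forelimb side, at or beyond the nearest forelimb library, and 149 (22.1%) were on the hindlimb side. Extensor digitorum communis had 64.4% on the forelimb side and rhomboideus had 64.3%. In longissimus 49.8% were on the forelimb side and 37.9% on the hindlimb side. In the other 5 muscles the hindlimb side held more genes, from 68.6% in pectoralis major to 74.8% in extensor digitorum longus. Extensor carpi radialis and extensor digitorum communis, both extensors of the distal forelimb, were thus on different sides. Genes whose levels go together across muscles are counted one by one here, so the 675 genes are not independent.

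**Figure D3:**
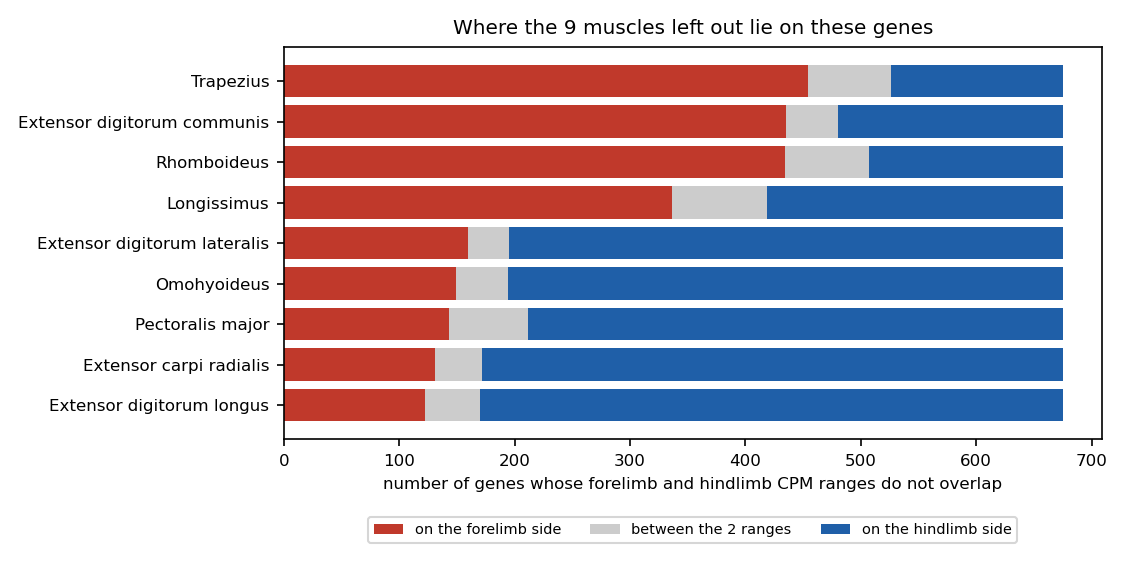
Number of the 675 genes with non-overlapping forelimb and hindlimb ranges for which each of the 9 muscles left out lies on the forelimb side, between the ranges or on the hindlimb side. Trapezius, extensor digitorum communis and rhomboideus have 64.3% to 67.3% on the forelimb side, and 5 muscles have 68.6% to 74.8% on the hindlimb side.

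Non-overlap was found at every level of expression. It held for 2.38% of the 2476 genes with a mean below 1 CPM, 5.34% of the 6464 genes between 1 and 10 CPM, 7.13% of the 3605 genes between 10 and 100 CPM and 3.26% of the 430 genes above 100 CPM. Of the 10 DEGs, 7 were between 10 and 100 CPM, 2 between 1 and 10 CPM and 1 below 1 CPM.

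Whole transcriptomes separated the limbs only in part. The distance between muscles (Euclidean, on log2 CPM of the 12975 genes) had a median of 72.6 over the 20 pairs between limbs, 70.6 over the 6 pairs within the forelimb and 62.6 over the 10 pairs within the hindlimb. The ranges overlapped, from 57.2 to 98.3 between limbs, from 60.1 to 91.3 within the forelimb and from 53.8 to 79.7 within the hindlimb. The nearest muscle was of the same limb for 6 of the 9 muscles. The exceptions were triceps brachii, nearest to semitendinosus at 57.2, biceps brachii, nearest to the caudal part of biceps femoris at 64.7, and the caudal part of biceps femoris, nearest to triceps brachii at 58.5.

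The parts of biceps femoris lay as far apart as many muscles of different limbs. Their 3 pairs were 65.3 to 79.7 apart, with a median of 74.7. Per gene, the range of log2 CPM over the 3 parts had a median of 0.59, and the absolute difference between limb means had a median of 0.21. The range within biceps femoris was larger than the difference between limbs for 11446 of 12975 genes (88.2%). A range and a difference of means are not the same measure, and the range grows with its number of libraries. At equal spread, a range over single libraries is already larger than a difference of means over several. The values expected without a limb difference were not computed, so these shares do not show which variation was larger. The range exceeded 1 on the log2 scale for 20% of genes, and the difference between limbs exceeded 1 for 1.7%.

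**Figure D4:**
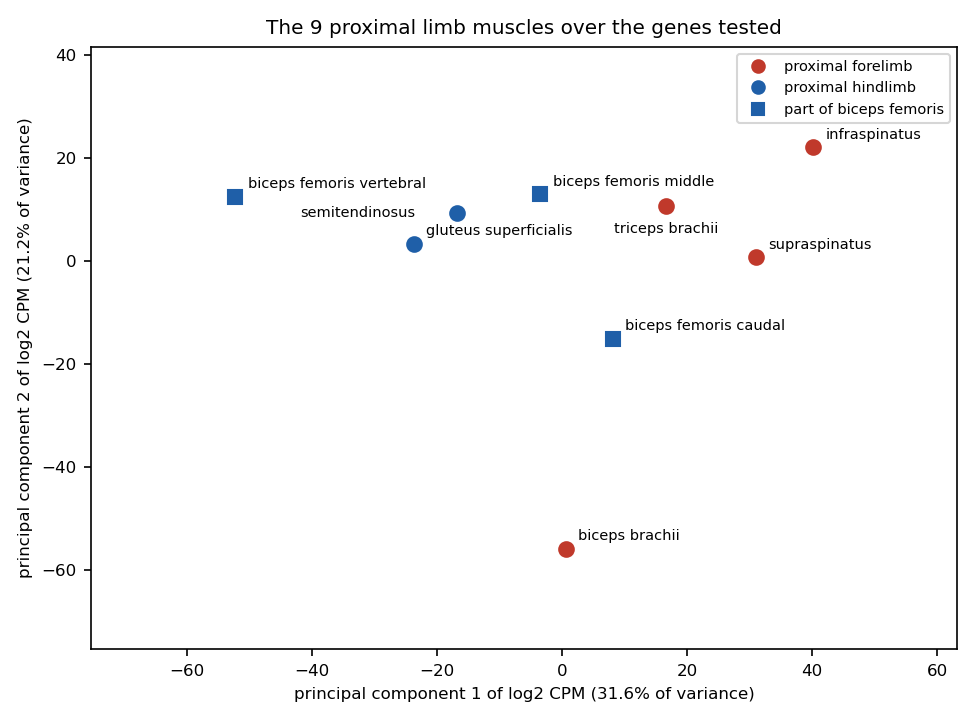
Principal components 1 and 2 of log2 CPM over the 12975 genes tested, with 31.6% and 21.2% of the variance; points are the 9 muscles, colored by limb, with squares for parts of biceps femoris. Along component 1 the vertebral part of biceps femoris is at -52.3 and infraspinatus at 40.1, the caudal part of biceps femoris at 8.1 lies beyond biceps brachii at 0.6, and biceps brachii is apart from the others along component 2 at -55.9.

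The number of DEGs depended on single libraries. Without the caudal part of biceps femoris, 324 genes were DEGs by edgeR (2.52% of those tested), with 203 higher in the forelimb and 121 higher in the hindlimb, and without biceps brachii there were 34 (0.26%). Without triceps brachii there were 8 DEGs, and without any one of the other libraries there were 2 or 3. The pair of genes without forelimb counts was called in all 9 of these fits, but not with all 18 libraries (edgeR adjusted p = 0.245). None of the other 8 DEGs was called in 5 of the 9 fits, which were those without infraspinatus, supraspinatus, semitendinosus, gluteus superficialis or the middle part of biceps femoris.

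**Figure D5:**
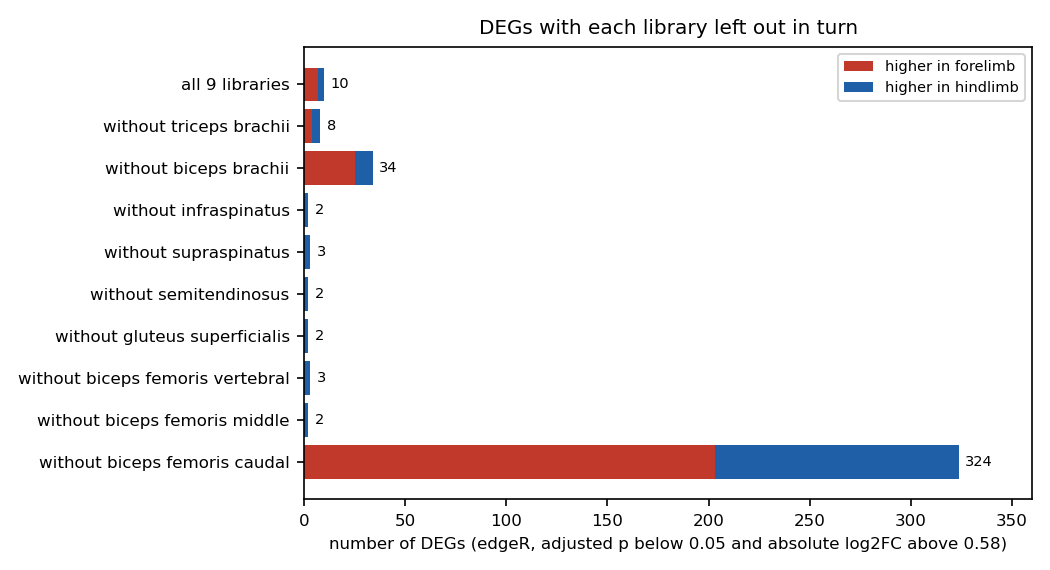
Number of DEGs by edgeR with all 9 libraries and with each library left out in turn, with bars split into genes higher in the forelimb and in the hindlimb. The count is 10 with all libraries, 324 without the caudal part of biceps femoris, 34 without biceps brachii and 2 to 8 otherwise.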

How the data were processed

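The authors removed ribosomal RNA, trimmed reads with NGSQCToolkit, aligned them with STAR 2.5.2b to EquCab2 and deposited raw counts per Ensembl gene, without normalization. The strand setting and the treatment of multi-mapped reads are not given in the sources used here, so overlapping and antisense genes and near-identical copies may share counts. The RefSeq gene table at hand matched 0 of the identifiers, so gene names, gene lists, fiber type scores and sequences were not used here. Groups came from the muscle in the labels. Genes were filtered with filterByExpr and tested with edgeR 4.0.16 in R 4.3.3 (TMM, quasi-likelihood test, 4 against 5 libraries, no covariate, Benjamini-Hochberg over all genes tested). The log2 CPM used for distances had a prior count of 2. The scripts were tested on simulated data with 200 changed genes. At a log2FC of 2, edgeR recovered 189 with 15 false calls, and DESeq2 recovered 192 with 40. At a log2FC of 1, edgeR recovered 105 with 4 false calls, and DESeq2 recovered 136 with 22. With 0 changed genes, both tests made 0 false calls. Genes given by identifier were the 2 DEGs per direction with the largest absolute log2FC, of those with non-overlapping ranges and no fewer than 10 counts in any library where the gene was higher. The comparison, the lists and the rule were chosen with earlier results of these data known. Alternatives were DESeq2 1.42.0, other scaling, filters and samples.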

Additional observations from a re-analysis of the deposited data

How the results depend on the processing

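With 10 DEGs by edgeR as the value reported, DESeq2 gave 385 (211 higher in the forelimb, 174 higher in the hindlimb), DESeq2 size factors in edgeR 4 (1 and 3, against 7 and 3 with TMM), no filter on low counts 64 (34 and 30), summing the parts of biceps femoris to 1 sample 127 (41 and 86), and a fit of all 18 libraries with 5 groups 0, with 1914 genes at an unadjusted p below 0.05 in edgeR. Leaving out each library gave 2 to 324. At least 10 counts in every library gave 8 (7 and 1), and a robust fit 14 (11 and 3). The cause of these differences was not tested. Every gene given by identifier kept its direction in each alternative that tested it. ENSECAG00000022389 was called in 8 of 16 alternatives, with edgeR or DESeq2 adjusted p from 7.78e-07 to 0.245 and log2FC from 1.08 to 1.28, and ENSECAG00000020637 in 7 of 16, with adjusted p from 2.56e-06 to 0.249 and log2FC from 1.06 to 1.32. The pair without forelimb counts was called in 14 of 16 alternatives. It was not tested with at least 10 counts in every library, and not called with all 18 libraries (edgeR adjusted p = 0.245).

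No paired analysis by animal was possible because all libraries came from 1 horse. The planned fiber type covariate and gene list medians were not run, since the files name no identifier. With 1 horse, differences between limbs cannot be told apart from features of this animal. With 1 library per muscle or muscle part, each of these cannot be told apart from its library.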
